A study of Mus musculus with 5 samples.

Results

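The genes of the proteasome were examined in 6DT1 cells, a metastatic mouse mammary carcinoma line, in which *Arid4b* had been knocked down. Genes were taken by their symbols, as Psma, Psmb, Psmc, Psmd, Psme or Psmg followed by a digit, without pseudogenes and without the immunoproteasome genes *Psmb8*, *Psmb9* and *Psmb10*. The rule gave 46 of the 19938 genes measured. Of these, 44 encode proteasome subunits, activators or assembly chaperones. The other two, *Psmc3ip* and *Psme3ip1*, bear the name of a proteasome protein that their product binds and are no part of the proteasome. The *Arid4b* knockdown cohort (n = 2 lines) held lines H3 and H4, each carrying a lentiviral hairpin against *Arid4b* with low ARID4B protein. The control cohort (n = 3 lines) held H5, whose *Arid4b* hairpin left ARID4B at a normal level, a line with a scrambled hairpin in the same pLKO.1 vector, and untransduced cells. All lines except the untransduced cells had been selected with puromycin and were pooled clones. Each line was arrayed once, so that no line has a replicate of its own.

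The 26S proteasome is the protease that degrades proteins tagged with ubiquitin. Its 20S core is a barrel of alpha rings, which gate the entrance, and beta rings, which hold the proteolytic sites. The 19S particle caps the core: its non-ATPase subunits bind ubiquitin chains and cut them off, and its ATPase ring unfolds the substrate and opens the gate. Dedicated chaperones assemble both particles, and alternative caps of the Psme family can take the place of the 19S particle. Dividing cells use the proteasome to clear cyclins and other short-lived proteins, and its subunit genes are known to be transcribed together, among others through NFE2L1.

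Each line gave 1 Affymetrix Mouse Gene 1.0 ST array, 5 in all, with expression as log2 values normalized by the authors. The median over all probe sets was 6.24 to 6.35, and the H3 array had the narrowest spread (SD 2.25, against 2.29 to 2.30). *Arid4b* itself was at 6.88 (H3) and 7.35 (H4), below the 8.24 to 8.36 of the control lines (log2 fold change -1.20, standard error 0.15, adjusted p = 0.217 from limma). Of 8 epithelial markers none passed an unadjusted p under 0.05, which 7.61% of all genes passed as lower and 4.34% as higher in the knockdown lines. The control means of *Krt8* and *Krt18* were 12.18 and 11.67, while *Epcam* and *Cdh1* lay at or below 6.16 in every line, under the array medians. Of 7 leukocyte markers measured 2 were higher in the knockdown lines (4.34% of all genes), *Cd68* (log2 fold change 0.95) and *Csf1r* (0.20). *Csf1r* lay at 5.26 to 5.54 in all 5 lines, under the array medians. The summed linear signal of the leukocyte list was 2265 to 2285 in the knockdown lines and 1238 to 1343 in the control lines, most of it from *Cd68*. The defining leukocyte marker *Ptprc* lay at 4.98 to 5.15 in all 5 lines. Of 8 fibroblast and endothelial markers none passed, with summed signals of 738 to 812 against 672 to 707. The part of these genes in the results below was not tested. RNA came from whole cultures, so that less RNA per cell and fewer cells of a type cannot be told apart.

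Few proteasome genes passed the test, while the log2 fold change of most lay below 0. The log2 fold change of knockdown against control lines lay below 0 for 39 of the 46 genes, against 38.7% of all genes, and its median was -0.17 (a change of -11.2%), against 0.03 over all genes. Such a share of all genes depended on dim genes and on the scaling. Against the selected control lines H5 and scrambled alone it was 38.0%, with 38 of 46 proteasome genes. It was 47.0% without the lowest 1 in 3 genes by mean (38 of 44) and 55.0% with the array medians subtracted (40 of 46). With limma and the study's threshold, a p under 0.05 without adjustment, 11 of the 46 genes were lower, 1 was higher and 34 did not pass, while 7.61% of all genes were lower and 4.34% were higher. No gene of the series passed an adjusted p under 0.05 (0.0% of all genes), and the lowest adjusted p of a proteasome gene was 0.31; an unmoderated equal-variance model gave 5 lower (4.19% of all genes) and 1 higher (2.94%) unadjusted, and 0 adjusted. Both knockdown lines lay below all 3 control lines for 21 genes (13.5% of all genes) and above them for 2 (13.9% of all genes). The 46 genes were mostly bright, and 17.4% of them held tied values between lines, against 38.4% of all genes. Without the lowest 1 in 3 genes by mean, 12 of 44 were lower, against 11.3% of the genes kept. Without genes with tied values 12 of 38 were lower, against 12.5%. Both knockdown lines lay below the control lines for 21 of these 44 (19.35% of the genes kept) and 21 of these 38 (20.9%). The count of 11 depended on single lines. It was 3 without H3 (6.52% of the 46, below the 9.06% of all genes), 4 without H4 (8.7%, below the 9.96% of all genes), 4 without H5 (8.7% against 3.89%), 14 without the scrambled control (30.4% against 8.0%) and 5 without the untransduced cells (10.9% against 5.07%). The number of genes with a log2 fold change below 0 stayed between 35 and 40 of 46 in these fits, for which the share of all genes is not given. The median over the 46 genes lay between -0.22 and -0.10, and that over all genes between 0.006 and 0.043. These fits share most of their arrays, so they are not independent of each other.

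**Figure D1:**
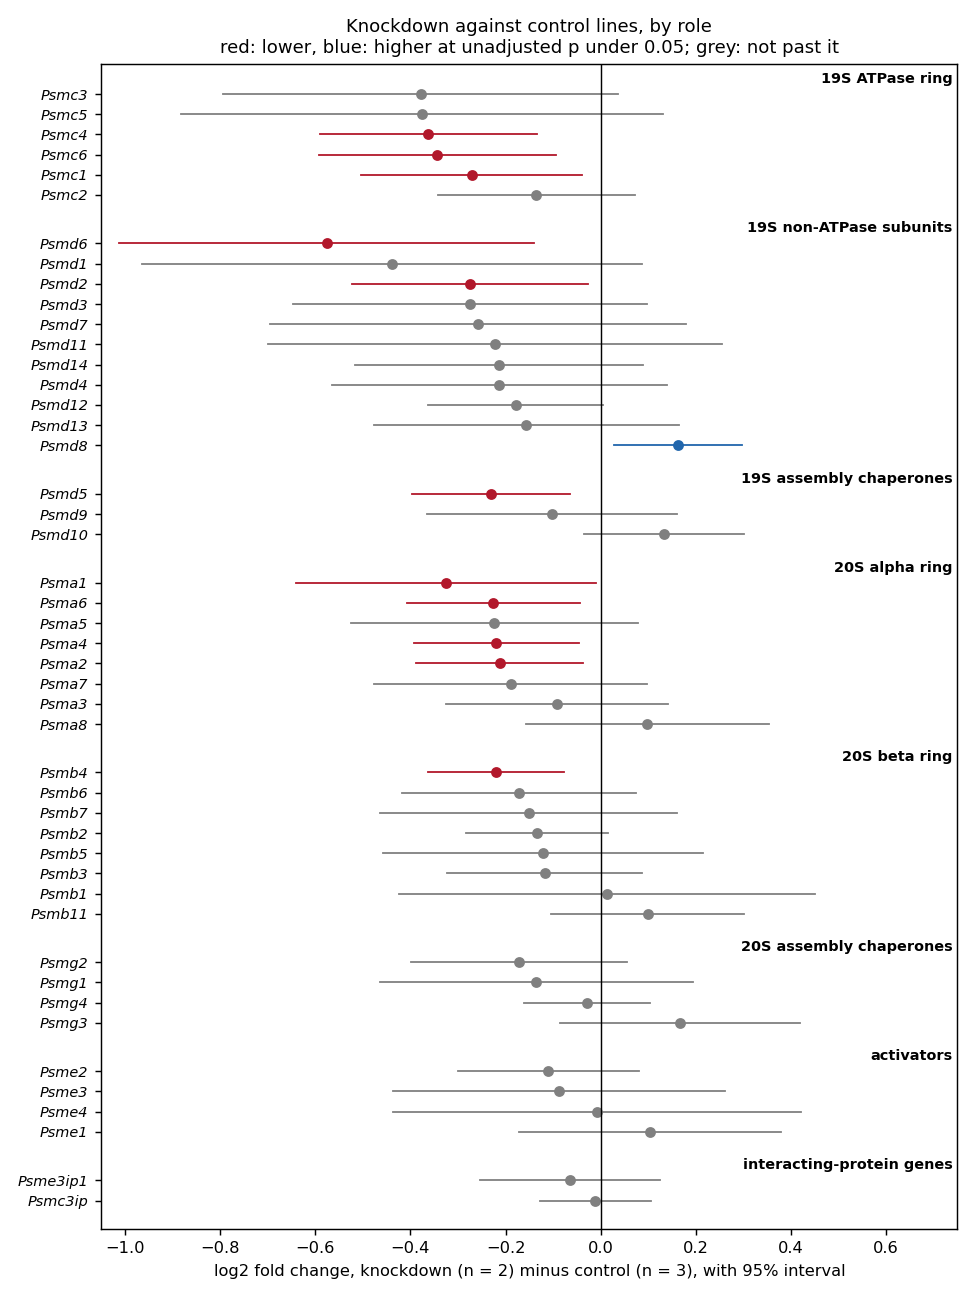
Log2 fold change of the knockdown cohort (n = 2 lines) against the control cohort (n = 3 lines) on the horizontal axis for each of the 46 genes, grouped by role, with the 95% interval from limma. Most points lie left of 0, from -0.58 for *Psmd6* to 0.17 for *Psmg3*; the 11 genes in red were lower and *Psmd8* in blue was higher at an unadjusted p under 0.05.

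The promoters of the genes that the results below return to are shown here, since coordinated transcription of the subunits is read at these sequences. Of the 46 genes, 38 were found in a RefSeq promoter table of build GRCm38.p6, with 42 promoters. The 250 bases before the start of *Psmd6*, the gene with the lowest log2 fold change (chr14:14120946-14121195, minus strand), of *Psma1* (chr7:114276117-114276366, minus strand) and *Psma2* (chr13:14612992-14613241, plus strand), which passed the threshold and hold a CCAAT box, and of *Psmb5*, which encodes a proteolytic subunit (chr14:54617996-54618245, minus strand), read 5′ to 3′ on the gene's strand as follows. Capitals mark CCAAT or its reverse complement, the box bound by NF-Y, and TGACNNNGC on either strand, the core of the antioxidant response element bound by NFE2L1 and NFE2L2.
Psmd6: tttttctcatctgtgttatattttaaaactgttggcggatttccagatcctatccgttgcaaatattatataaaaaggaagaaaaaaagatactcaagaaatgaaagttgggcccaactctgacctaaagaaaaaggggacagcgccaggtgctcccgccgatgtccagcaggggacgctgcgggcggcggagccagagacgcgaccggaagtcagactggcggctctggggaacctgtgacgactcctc
Psma1: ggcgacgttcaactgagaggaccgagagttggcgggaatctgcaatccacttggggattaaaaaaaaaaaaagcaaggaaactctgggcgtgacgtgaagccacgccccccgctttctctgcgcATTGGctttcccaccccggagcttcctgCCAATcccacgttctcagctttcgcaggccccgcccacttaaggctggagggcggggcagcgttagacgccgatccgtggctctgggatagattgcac
Psma2: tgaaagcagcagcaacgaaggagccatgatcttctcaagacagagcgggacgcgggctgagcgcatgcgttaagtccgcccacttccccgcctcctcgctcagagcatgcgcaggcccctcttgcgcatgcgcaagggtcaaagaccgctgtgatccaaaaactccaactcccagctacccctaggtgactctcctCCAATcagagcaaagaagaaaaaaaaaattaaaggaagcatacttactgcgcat
Psmb5: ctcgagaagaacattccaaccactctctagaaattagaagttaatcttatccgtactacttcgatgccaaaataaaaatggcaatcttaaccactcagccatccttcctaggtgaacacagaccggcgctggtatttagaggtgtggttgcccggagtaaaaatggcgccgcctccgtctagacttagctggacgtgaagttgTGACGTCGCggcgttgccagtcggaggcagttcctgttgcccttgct
*Psma1* held CCAAT at bases -98 to -94 and its reverse complement at -126 to -122, counted from the start with the last base before it as -1. *Psma2* held CCAAT at -54 to -50, *Psmb5* held TGACNNNGC at -47 to -39, and the printed *Psmd6* sequence held neither. Over the full windows, which run 50 bases past the start, CCAAT on either strand was found in 15 of the 42 promoters (35.7%), against 37.4% of all 32851 promoters, and TGACNNNGC in 6 (14.3%), against 12.4%. No proteasome promoter held both motifs. All 11 genes that were lower had a promoter in the table. CCAAT was present for 4 of them and TGACNNNGC for 1. These are matches of letters, and no binding was measured.

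The ATPase ring of the 19S particle had the lowest median of the groups. All 6 of its genes had a log2 fold change below 0 (38.7% of all genes), with a median of -0.35. At the unadjusted threshold 3 of 6 were lower (7.61% of all genes). *Psmc4* was at 10.03 (H3) and 10.07 (H4) in the knockdown lines and at 10.43 (H5), 10.27 (scrambled) and 10.52 (untransduced) in the control lines (log2 fold change -0.36, standard error 0.09, adjusted p = 0.31 from limma). Both knockdown lines were thus below every control line. *Psmc6* was at 9.46 and 9.71, against 9.87, 9.92 and 10.00 for the control lines in the same order (-0.34, standard error 0.09). *Psmc1* lay at 9.56 and 9.37, against 9.72, 9.65 and 9.84 (-0.27, standard error 0.09). Neither of these overlapped the control lines. Both knockdown lines lay below all 3 control lines in 13.5% of all genes. *Psmc3* and *Psmc5* had log2 fold changes of -0.38 each but did not pass, with control SDs of 0.25 and 0.23 (n = 3). H4 fell below H3 for *Psmc3* (9.28 and 9.39), and H3 below H4 for *Psmc5* (8.14 and 8.55). *Psmc2* had the smallest difference, -0.14 (95% interval -0.34 to 0.07).

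The non-ATPase subunits of the 19S particle spanned the widest range. Of 11 genes 2 were lower (7.61% of all genes), 1 was higher (4.34%) and 8 did not pass the unadjusted threshold. The median was -0.22. *Psmd6*, a subunit of the lid of the particle, had the largest difference of all 46 genes. Its levels were 9.62 (H3) and 9.28 (H4), against 10.10 (H5), 9.80 (scrambled) and 10.18 (untransduced) (log2 fold change -0.58, standard error 0.17, adjusted p = 0.344 from limma). The groups did not overlap, with H3 closest to the scrambled control. *Psmd2*, a scaffold subunit at the base that receives ubiquitin-like domains, lay at 11.91 and 11.84 against 12.16, 12.01 and 12.28 (-0.28, standard error 0.09). The other large scaffold subunit of the base, *Psmd1*, had a log2 fold change of -0.44, but its control lines ran from 11.23 in the scrambled control to 11.84 in untransduced cells, and its interval was -0.96 to 0.09. The ubiquitin receptor *Psmd4* had -0.21 (95% interval -0.57 to 0.14), and the deubiquitinase *Psmd14*, which cuts ubiquitin chains from the substrate, had -0.21 (95% interval -0.52 to 0.09). *Psmd8*, another lid subunit, was the exception. Its levels were 10.63 (H3) and 10.55 (H4), above 10.46, 10.38 and 10.45 in the control lines (0.16, standard error 0.05, unadjusted p = 0.0273 from limma). It passed in only 6 of 14 alternative fits and not with the array medians subtracted.

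**Figure D2:**
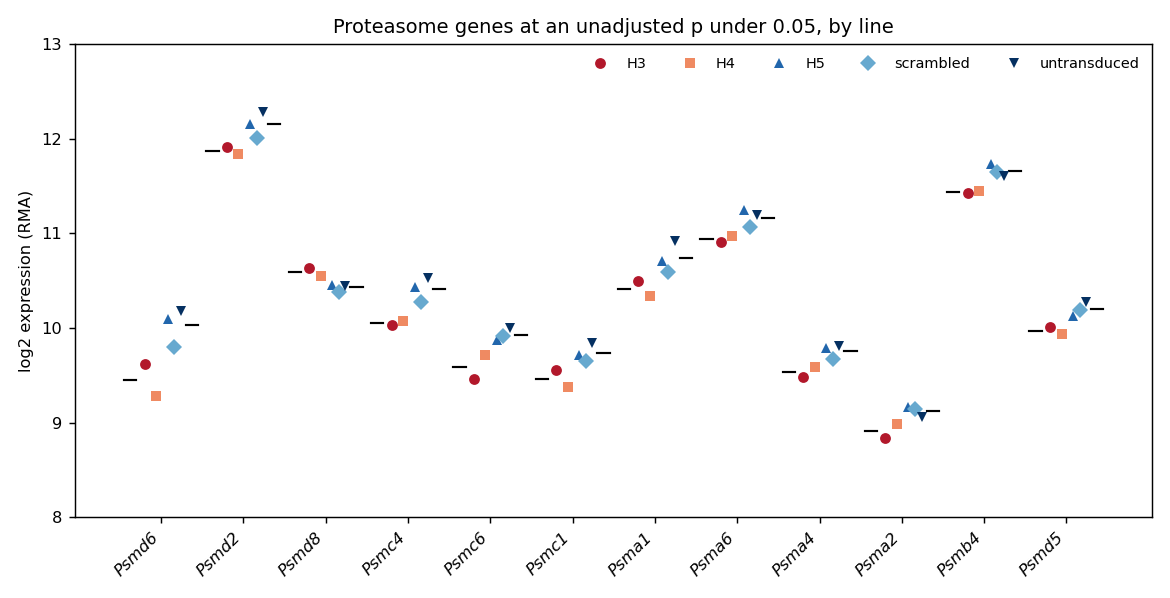
Log2 expression (vertical axis) of the 12 genes at an unadjusted p under 0.05, with 1 symbol per line and array and short bars for the mean of each cohort. Both knockdown lines are under every control line in 11 genes (13.5% of all genes), for *Psmd6* at 9.62 and 9.28, and above them in *Psmd8* (13.9%). The threshold that chose these genes itself favours cohorts that lie apart.

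Among the 3 chaperones that assemble the 19S particle, 1 was lower (7.61% of all genes). *Psmd5* was at 10.01 (H3) and 9.93 (H4), against 10.13, 10.19 and 10.28 in the control lines (log2 fold change -0.23, standard error 0.06). *Psmd10*, which encodes the chaperone gankyrin, had the opposite sign. It lay at 9.99 and 10.15, above 9.95, 9.96 and 9.91, with a log2 fold change of 0.13 (95% interval -0.03 to 0.30). *Psmd9* had -0.10.

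The alpha ring of the 20S core was lower in 4 of its 8 genes (7.61% of all genes), with a median of -0.22. *Psma1* was at 10.49 (H3) and 10.33 (H4), against 10.70 (H5), 10.59 (scrambled) and 10.92 (untransduced) (log2 fold change -0.33, standard error 0.12). *Psma6* (-0.23), *Psma4* (-0.22) and *Psma2* (-0.21) had standard errors of 0.07 each. For all 4 the knockdown lines lay below the control lines, and for *Psma5* as well (-0.22), which did not pass. This held for 13.5% of all genes, and for 19.35% without the lowest 1 in 3 genes by mean. *Psma2* was unlike most of the genes in that the untransduced cells (9.06) were the lowest of the control lines. *Psma8*, the alpha subunit of testis, lay at 5.16 to 5.45 in all lines, below the array medians, with 0.10.

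The beta ring had 1 of 8 genes lower (7.61% of all genes) and a median of -0.13. The difference between the rings was not tested, and it did not hold in each fit. Without H5 the alpha ring had 0 genes lower and the beta ring 1 (3.89% of all genes), and without the untransduced cells each had 1 (5.07%). *Psmb4*, which is not proteolytic, was at 11.43 (H3) and 11.45 (H4), against 11.73 (H5), 11.64 (scrambled) and 11.60 (untransduced) (log2 fold change -0.22, standard error 0.05, adjusted p = 0.317 from limma). The groups did not overlap, and the gap to the nearest control line exceeded the range within either cohort. It passed the unadjusted threshold in 13 of 14 alternative fits, missing it without H3, the most of the 12 genes. *Psmc4* followed with 12, missing it without H3 and without H4. The 3 proteolytic subunits did not pass. *Psmb5*, which carries the chymotrypsin-like site and is the target of bortezomib, was at 11.94 (H3) and 11.98 (H4), between 11.92 in the scrambled control and 12.03 in H5, with 12.31 in untransduced cells (-0.12, 95% interval -0.46 to 0.22). *Psmb6*, with the caspase-like site, had -0.17 (95% interval -0.42 to 0.07) and *Psmb7*, with the trypsin-like site, had -0.15 (95% interval -0.46 to 0.16). These intervals include 0 and also differences as large as that of *Psmb4*. *Psmb1* had 0.01, with the untransduced cells at 9.28 below the other lines, of which the scrambled control was highest at 9.76. *Psmb11*, the beta subunit of the thymus, lay at 5.57 to 5.83 in all lines.

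The chaperones of the 20S core and the alternative caps did not pass the threshold in any of 8 genes. *Psmg1* and *Psmg2*, which act as a pair on the alpha ring, had log2 fold changes of -0.14 and -0.17, and *Psmg4* and *Psmg3*, which act as another pair, had -0.03 and 0.17. *Psmg3* lay at 7.16 in H3 and at 6.80 to 6.90 in the other 4 lines. The interferon-inducible caps *Psme1* and *Psme2* had 0.10 and -0.11, the nuclear cap *Psme3* had -0.09, and *Psme4*, which encodes PA200, had -0.01. *Psme3* and *Psme4* were lower in H3 (10.62 and 9.93) than in H4 (10.90 and 10.25), so that the knockdown lines lay on different sides of the control means. The immunoproteasome genes *Psmb8*, *Psmb9* and *Psmb10*, which replace the proteolytic subunits in cells exposed to interferon, had 0.02, -0.07 and -0.11, and none passed. *Psmc3ip*, a recombination factor, had -0.01, and *Psme3ip1* had -0.06.

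The 5 lines differed among themselves as well as between the cohorts. Relative to the mean of the control lines, the 46 genes had a median of -0.20 (H3), -0.14 (H4), -0.10 (scrambled), -0.01 (H5) and 0.11 (untransduced). The scrambled control was therefore close to the knockdown lines. H4 was lower than the scrambled control in 26 genes, higher in 17 and equal in 3, with a median difference of -0.02 (interquartile range -0.16 to 0.03), while 42.9% of all genes were lower. H3 was lower than the scrambled control in 38 genes (median -0.07), against 36.4% of all genes. Against H5 the medians were -0.17 for H3 and -0.11 for H4, and against untransduced cells they were -0.34 and -0.23. Each of these differences is between single arrays and has no test, and they share control lines with each other and with the fits above.

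**Figure D3:**
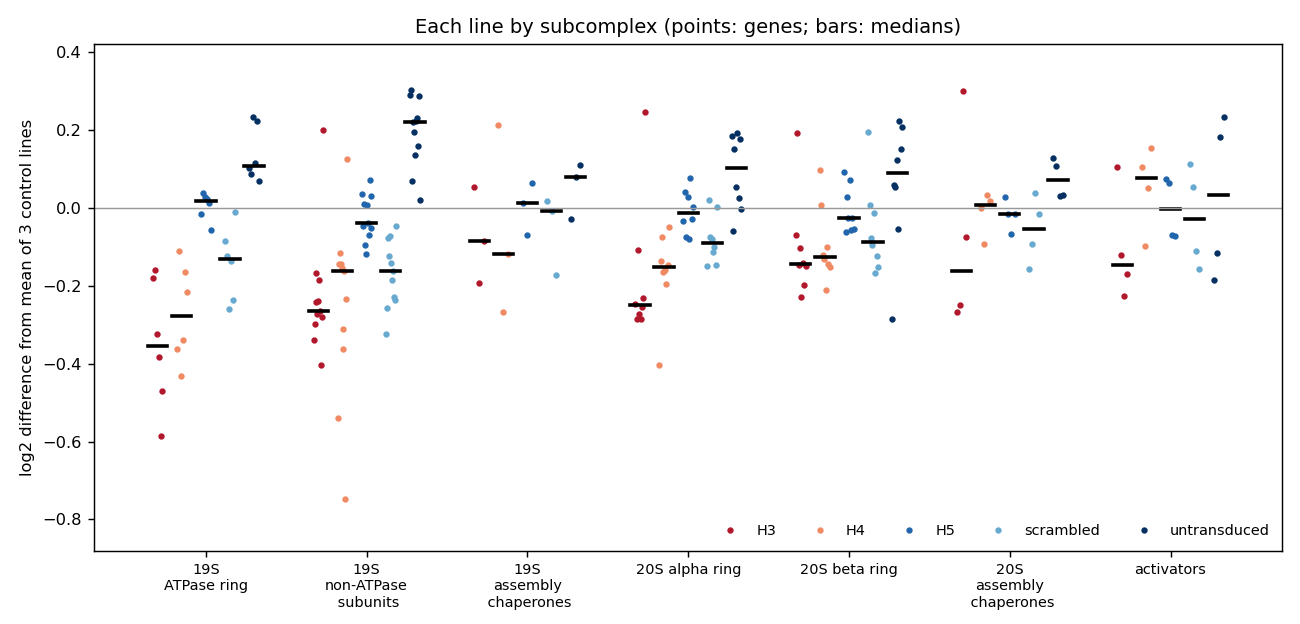
Log2 difference of each line from the mean of the 3 control lines (vertical axis), with 1 point per gene and a bar for the median, by subcomplex. Untransduced cells have the highest median and H3 the lowest in the ATPase, non-ATPase, alpha and beta groups, and the scrambled control and H4 share a median of -0.16 in the non-ATPase subunits.

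The untransduced cells had the highest level of the 5 lines in 34 of the 46 genes, against 19.7% of all genes. They lay above the mean of H5 and the scrambled control, both selected with puromycin, in 39 of 46 genes (50.4% of all genes), with a median difference of 0.17 against 0.001 over all genes. That is as large as the median difference of -0.17 between the cohorts. In the 19S subunits, ATPase and non-ATPase together, this held for 17 of 17 genes (median 0.29), and in the 20S subunits for 12 of 16 (median 0.13). *Psmd11* (0.45), *Psmd1* (0.43) and *Psmd7* (0.43) had the largest such differences, and *Psmb1* (-0.43) the largest in the other direction. Transduction and selection differ together between these lines and cannot be told apart, and 1 unselected array gives no error. Against the 2 selected control lines alone, the knockdown lines were lower on average in 38 of 46 genes (38.0% of all genes), with a median of -0.10 against 0.03 over all genes. In that comparison 5 genes were lower at the unadjusted threshold (5.07% of all genes) and 0 were higher (2.55% of all genes). The 5 were *Psma2*, *Psmb4*, *Psmc4*, *Psmd5* and *Psme2*.

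The order of the lines was examined under other scalings, because of the narrow spread of the H3 array and because the 20S and 19S genes other than *Psma8* and *Psmb11* were among the brighter genes, with *Psmc5* the lowest of them at percentile 72.95 of the mean over lines. The median of H3 was -0.30 with the array medians subtracted, -0.12 after quantile normalization and -0.14 after cyclic loess normalization, and those of H4 were -0.13, -0.12 and -0.14. H3 and H4 were thus level after the last 2 of these. The scrambled control stayed at -0.09 in all 3 and the untransduced cells at 0.09 to 0.11. The number of genes lower at the unadjusted threshold was 13, 7 and 9 (10.2%, 6.68% and 7.99% of all genes), and 0, 2 and 2 were higher (2.55%, 6.52% and 4.69% of all genes).

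**Figure D4:**
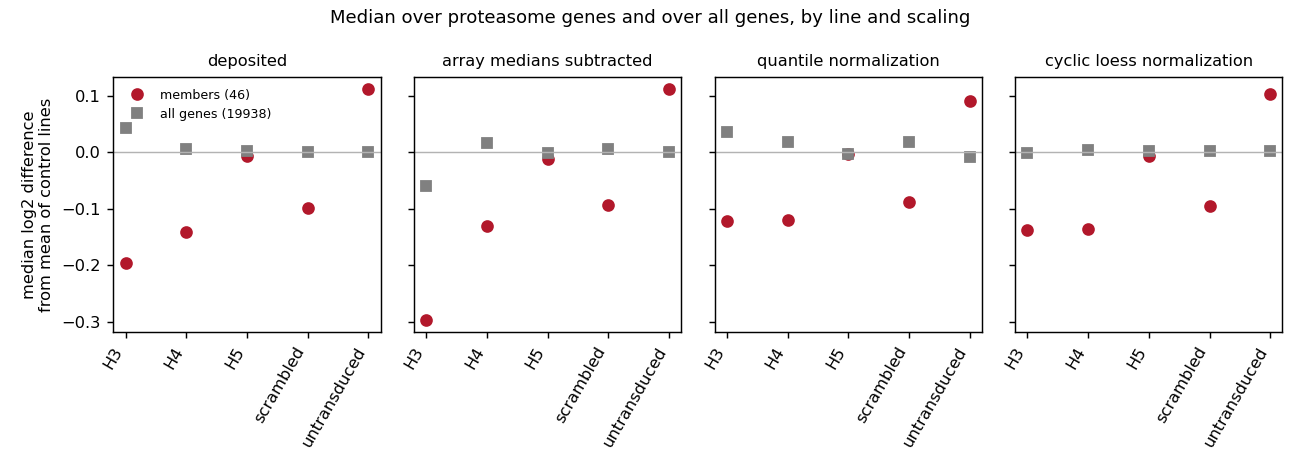
Median log2 difference from the mean of the control lines (vertical axis) in each of the 5 lines, over the 46 proteasome genes (circles) and over all 19938 genes (squares), for the deposited values and 3 other scalings. The circles of H3, H4 and the scrambled control lie below 0 and that of untransduced cells above 0 in each panel.

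Of 36 other genes of the pathway, 28 were measured. At the unadjusted threshold 8 of them were lower (7.61% of all genes) and 0 higher (4.34% of all genes), and the median was -0.12. The count of 8 was 1 without H5 (3.89% of all genes), 2 without the untransduced cells (5.07%) and 5 without H3 (9.06%), so that without H5 or the untransduced cells the share of the 28 was near that of all genes. Among 8 genes listed here for their known links to proteasome transcription, 4 were lower (7.61% of all genes). *Nfyc*, a subunit of the CCAAT-binding factor NF-Y, was at 9.41 (H3) and 9.31 (H4), against 10.08 (H5), 9.91 (scrambled) and 10.02 (untransduced) (log2 fold change -0.64, standard error 0.07, adjusted p = 0.198 from limma). These values are of its brightest probe set, and with its probe sets averaged the log2 fold change was -0.51. *Nfya* was at 9.394 and 9.002 against 9.69, 9.61 and 9.75 (-0.49, standard error 0.13), and *Nfyb* had -0.30 and did not pass. Both knockdown lines were below every control line for all 3 subunits (13.5% of all genes). For *Nfyb* this was by little, with H4 at 8.197 and the scrambled control at 8.210. The part of NF-Y in the levels of the proteasome genes was not tested. The other two that passed act in the degradation of proteins of the endoplasmic reticulum, through which NFE2L1 is processed. *Sel1l* had -0.38 and *Ngly1*, the glycanase that activates NFE2L1, had -0.24. *Syvn1*, of the same list, had -0.03 (95% interval -0.17 to 0.10) and did not pass. *Nfe2l1* itself lay at 10.98 to 11.07 in all 5 lines (-0.02, 95% interval -0.15 to 0.10), and *Nfe2l2* had 0.06.

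Among 11 genes whose products bind the proteasome, 2 were lower (7.61% of all genes). *Usp14*, a deubiquitinase on the 19S particle, was at 10.10 (H3) and 9.73 (H4), against 10.37, 10.29 and 10.52 (-0.48, standard error 0.14). *Txnl1*, a thioredoxin-like protein on the same particle, had -0.43, with H3 at 7.86 and H4 at 8.33, against 8.53 (H5), 8.50 (scrambled) and 8.55 (untransduced). The core maturation factor *Pomp* (-0.08) and the deubiquitinase *Uchl5* (-0.17) did not pass. Of 8 genes of ubiquitin shuttles and the VCP segregase, which extracts ubiquitinated proteins, *Ufd1* (-0.34) and the shuttle *Ubqln4* (-0.19) were lower (7.61% of all genes). *Vcp* itself had -0.20 and did not pass. Of 6 genes of ubiquitin and its activating enzymes only *Uba6* was measured on a row with 1 symbol (-0.29), and it did not pass.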

How the data were processed

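RNA of 5 lines of 6DT1 cells was hybridised to Affymetrix Mouse Gene 1.0 ST arrays, and the authors deposited normalized values on a log2 scale, with RMA and Partek named in the submitters' processing notes (versions not given in the sources used here). RMA brings the arrays to a common scale, so that a change in total RNA is not seen. Of 35556 probe sets, 21789 had 1 symbol in the platform annotation, 1621 had several and 12146 had none here. Per gene, the brightest probe set by mean was kept, which gave 19938 genes; 5 of the 46 proteasome genes had more than 1, and 1 row naming both *Psme2* and *Psme2b* was not used. Symbols of the other lists were updated through gene IDs in a RefSeq table of GRCm38.p6.

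Lines were grouped by the ARID4B level in the labels. Knockdown and control lines were compared over all genes in R 4.3.3, with lmFit and eBayes of limma 3.58.1 (3 residual and 1.58 prior degrees of freedom) and Benjamini-Hochberg adjustment; intervals are 95% intervals from its moderated standard errors. The fit was tested on simulated data. Gene sets were described by counts and medians and not tested. The members, lists and tests were chosen with earlier results of these data known. Named were the genes past the unadjusted threshold, the highest and lowest of each group, the proteolytic, ubiquitin-binding and cap genes, *Arid4b*, and pathway genes past the threshold; others are named as values chosen after they were seen. Each line was arrayed once, so that p-values reflect differences among lines that may be technical in part, and 5 arrays limit the precision. Alternatives were an unmoderated equal-variance model, trend and robust options, 3 scalings, leaving out dim or tied genes, averaged probe sets, ARID4B densitometry, a puromycin covariate and the omission of each line in turn. Figures were drawn with matplotlib 3.10.9.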

Additional observations from a re-analysis of the deposited data

How the results depend on the processing

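The median log2 fold change of the 46 genes kept its sign in each alternative, ranging from -0.22 to -0.10. It stayed within 1 SD of -0.17, but that SD, taken over the medians of the 3 control lines, was 0.106. So wide a margin sets little limit on the change. The value of -0.10 was that without the untransduced cells. The count of lower genes (11) was 5 with the unmoderated equal-variance model, 7 after quantile normalization and 5 with puromycin as a covariate, a fit that equals leaving out the only unselected line; leaving out 1 line gave 3 to 14. The count of higher genes (1) was 0 with trend and robust options (4.28% of all genes) and with the array medians subtracted (2.55%). It was also 0 without the lowest 1 in 3 genes (4.54%), without tied genes (5.25%) and with the puromycin covariate (2.55%). After quantile or cyclic loess normalization it was 2 (6.52% and 4.69%). Without H5, the scrambled control or the untransduced cells it was 0 (2.05%, 3.52% and 2.55%). It rose without H4, a fit with 1 knockdown line, and so did the share of all genes. The count at the adjusted threshold (0) changed only without H4, a fit that leaves 1 knockdown line. The gene concerned was *Psma8*, with a log2 fold change of 0.25 in that fit and a control SD of 0.00185. The number of genes with both knockdown lines below all control lines (21) was 17 after quantile normalization (12.2% of all genes), 20 after cyclic loess normalization (17.7%) and 21 with the array medians subtracted (18.9%), and 21 to 36 with 1 line left out. It was 36 without H4 (26.6% of all genes), 32 without the scrambled control (3790 of the 19938 genes), 22 without H3 (27.7%), 22 without the untransduced cells (15.9%) and 21 without H5 (14.9%). Pathway genes lower (8) were 2 with the unmoderated model and with the puromycin covariate and 1 to 8 with 1 line left out; pathway genes higher (0) were 1 after quantile normalization and 0 to 1 with 1 line left out.

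Signs changed only for named genes that had not passed the threshold. *Psmb8* was -0.0247 with array medians subtracted, -0.0147 after quantile and -0.0419 after cyclic loess normalization, -0.104 with the puromycin covariate, and -0.104 to 0.18 with 1 line left out. *Psme4* was 0.0564 after quantile and 0.0294 after cyclic loess normalization, 0.107 with the puromycin covariate, and -0.171 to 0.154 with 1 line left out. *Psme3* was 0.00225 with the puromycin covariate and -0.227 to 0.0505 with 1 line left out. *Psme3ip1* was 0.000535 after quantile normalization and -0.135 to 0.00513 with 1 line left out. With 1 line left out, *Psma8* was -0.0495 to 0.246, *Psmc3ip* -0.0376 to 0.0156 and *Psmb9* -0.202 to 0.0666. With 1 knockdown line left, that line is assumed to vary like the control lines. Leaving out *Psmc3ip*, alone or with *Psme3ip1* (the latter chosen after the data were seen), left the counts of lower, higher and adjusted calls as they were; *Psme2b* had no row of its own. The causes of these changes were not tested. No paired analysis was possible because the lines carry different hairpins and share no replicate numbers in the labels.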

Other observations

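The untransduced cells, which lay above the mean of the selected control lines H5 and scrambled in 39 of the 46 genes, lay below it in 7. These values were singled out after they had been seen, each is from 1 array, and no group among them was tested. The differences were -0.43 for *Psmb1*, -0.28 for *Psme1*, -0.17 for *Psme2*, -0.09 for *Psma2*, -0.08 for *Psmb4*, -0.04 for *Psmd10* and -0.003 for *Psma8*. *Psme1* and *Psme2* encode the interferon-inducible cap. Of the immunoproteasome genes, which are also induced by interferon, *Psmb8* had -0.37 and *Psmb9* -0.31, while *Psmb10* had 0.28. For *Psmb8* the selected control lines were themselves apart, at 6.48 (H5) and 6.87 (scrambled), with 6.30 in the untransduced cells. The knockdown lines were split for *Psmb9*, with 8.08 in H3, near H5 and the scrambled control (8.11 each), and 7.81 in H4, near the untransduced cells (7.80).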
